A study of Homo sapiens with 2 samples.

Results

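The miR-378 family was described in hCMEC/D3, a line of immortalised endothelial cells from human brain microvessels used to model the blood-brain barrier. Small RNA was sequenced in 2 libraries, labelled replicate 2 and replicate 8 of this line, and both belong to 1 group, with no treatment or second condition in the labels. The labels name the samples as a cell line, although their protocol speaks of tissue, and do not say whether the replicates came from separate cultures. Spread between them may therefore be technical. The members were all rows of the deposited table whose hairpin name begins with hsa-mir-378: 12 of 2363 rows, with 11 mature names and 11 hairpins among 2042 names and 1600 hairpins. The rule uses names only, not measured values, but was written with earlier results of these data known.

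A miRNA is cut from a folded hairpin in a longer transcript, and either side of the hairpin (the 5p or 3p arm) can give the mature strand. Bases 2 to 8, the seed, do most of the target recognition. The founding member, hsa-mir-378a, lies in an intron of PPARGC1B, which encodes a coactivator of mitochondrial and oxidative metabolism genes (PGC-1 beta), and the miRNA is known from muscle, fat and liver metabolism and as a promoter of blood vessel growth in tumours. The human genome also holds several hairpins with nearly the same mature sequence, lettered b to j and called copies here. A short read can match several of them.

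The hsa-mir-378a hairpin shows where its 2 named arms lie. The sequence, like all sequences here, is from RefSeq (GRCh38.p14), written 5′ to 3′, and the capitals mark first the 5p arm (bases 5 to 26) and then the 3p arm (bases 43 to 64).
hsa-mir-378a: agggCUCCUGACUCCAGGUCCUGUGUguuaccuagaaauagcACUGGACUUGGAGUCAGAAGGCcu
The 66-base gene MIR378A (ENSG00000199047.1) is on chromosome 5 at 149112388 to 149112453 on the plus strand (GRCh37, GENCODE), and the RefSeq hairpin equals the GRCh37 sequence there. It starts 2527 bases after the start of PPARGC1B, on the same strand. All 4 PPARGC1B transcripts that span it have it in intron 1, and none has an exon there.

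The mature sequences that share the seed of miR-378a-3p, CUGGACU, are set below each other to show how little separates them. Capitals mark the seed. The list holds miR-422a, a relative outside the name rule with the same seed.
miR-378a-3p: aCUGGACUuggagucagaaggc
miR-378b: aCUGGACUuggaggcagaa
miR-378c: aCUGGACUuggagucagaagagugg
miR-378f: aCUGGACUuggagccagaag
miR-378h: aCUGGACUuggugucagaugg
miR-378i: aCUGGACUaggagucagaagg
miR-422a: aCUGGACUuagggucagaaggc
A pair of further copies has a changed seed, again in capitals.
miR-378g: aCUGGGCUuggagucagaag
miR-378j: aCUGGAUUuggagccagaa
RefSeq sequences were matched for 9 of the 11 mature names; miR-378d and miR-378e were not matched.

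Positions are counted from 1 at the 5′ end of miR-378a-3p, whose base is given first. miR-378c had the longest common start, 20 bases, and differed by G21A and C22G before running 3 bases further. A read that ends at or before base 20 is the same for both. miR-378i differed by U9A, miR-378f by U14C, miR-378b by U14G and miR-378g by A6G, which is inside the seed. miR-378h differed by A12U and A19U, and miR-378j by C7U, inside the seed, and U14C. miR-422a differed by G10A and A12G. For miR-378e, whose hairpin alone was matched, the first 17 bases of miR-378a-3p stand in the hairpin, in capitals below. The hairpin of miR-378c is shown beneath it, with its 20 shared bases in capitals, because it carries the common stretch near its other end.
hsa-mir-378e: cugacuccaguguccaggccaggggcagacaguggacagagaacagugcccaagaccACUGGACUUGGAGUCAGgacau
hsa-mir-378c: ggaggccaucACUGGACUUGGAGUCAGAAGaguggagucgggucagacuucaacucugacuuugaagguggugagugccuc
The common stretch starts at base 43 of 66 in hsa-mir-378a, base 58 of 79 in hsa-mir-378e and base 52 of 78 in hsa-mir-378f, on the 3′ side of the hairpin. It starts at base 11 of 81 in hsa-mir-378c, base 7 of 76 in hsa-mir-378i, base 9 of 83 in hsa-mir-378h and base 2 of 41 in hsa-mir-378g, on the 5′ side. The strands that match miR-378a-3p thus lie on opposite arms in different members.

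**Figure D1:**
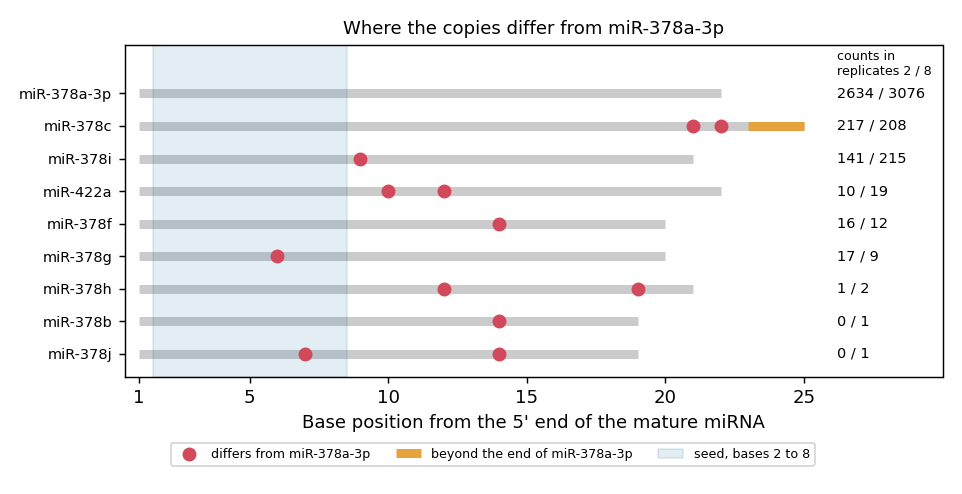
Horizontal bars run from base 1 to the last base of each mature miRNA with a matched sequence, and dots mark bases that differ from miR-378a-3p over the shared length. The shaded band is the seed, and the numbers at the right are raw counts in replicates 2 and 8; miR-378c differs from base 21 on, and miR-378g and miR-378j differ within the seed.

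The copies lie at scattered loci (GRCh37, GENCODE), and 9 of the 11 hairpins were located here. MIR378C is on chromosome 10 at 132760851 to 132760931 on the minus strand, outside any other annotated gene. MIR378I is on chromosome 22 at 42319226 to 42319301 on the minus strand, in an untranslated part of the last of 3 exons of TNFRSF13C, the receptor for the B cell survival factor BAFF, on the same strand. MIR378D1 is on chromosome 4 at 5925002 to 5925055 (minus strand), in an intron of C4orf50. MIR378E, on chromosome 5 at 169455492 to 169455570 (plus strand), is in introns of DOCK2. MIR378F is on chromosome 1 at 24255560 to 24255637 (plus strand), outside other genes, and MIR378G on the same chromosome at 95211416 to 95211456 (minus strand), in introns of SLC44A3-AS1. MIR378B, on chromosome 3 at 10371913 to 10371969, and MIR378H, on chromosome 5 at 154209018 to 154209100, lie opposite to ATP2B2 and FAXDC2, on the other strand. Of the located family hairpins, MIR378A alone lies in PPARGC1B.

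The libraries had nearly the same depth. Each mature name was counted once, by whichever of its rows had the highest mean count. Totals were 2721287 counts in replicate 2 and 2727675 in replicate 8, and levels in CPM (counts scaled to a common library total, as RPM is) were computed on them. A count of 0 was read as a level of up to 3 counts, 1.10 CPM in either library. The labels mention no molecular identifiers, so intervals and tests on counts cover counting error only. The endothelial label was checked against miR-126: the level of miR-126-3p was 109395 CPM (replicate 2) and 115057 CPM (replicate 8). The 7 muscle miRNAs (tissues known for much miR-378a) summed to 13.6 and 11.4 CPM, with miR-208a and miR-208b at 0 in both libraries.

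miR-378a-3p was the most abundant member by far. Its raw count was 2634 in replicate 2 and 3076 in replicate 8, and the RPM that the authors deposited was 828.29 and 959.53. The level was 968 CPM and 1128 CPM, a mean of 1048 ± 113 CPM (SD, n = 2), with rank 85 among the 2042 names. This is 0.0968% of counts in replicate 2 (0.0932 to 0.101, 95% Wilson interval) against 0.113% in replicate 8 (0.109 to 0.117), so the intervals do not overlap and replicate 8 is the higher. The names just above it by mean level were miR-30c-2-3p at 1067 ± 227 CPM, miR-935 at 1065 ± 103 CPM and miR-769-5p at 1061 ± 37.2 CPM. Just below were miR-152 at 1024 ± 0.379 CPM, miR-589-5p at 988 ± 67.3 CPM and miR-27a-5p at 960 ± 93.9 CPM. The order among these neighbours is within the spread between the libraries: miR-378a-3p ranked 86 in replicate 2 and 80 in replicate 8.

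The other arm of the same hairpin, miR-378a-5p, was scarce. Its sequence is shown because it comes from the opposite side of the hairpin and has an unrelated seed, in capitals.
miR-378a-5p: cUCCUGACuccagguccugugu
Its counts were 36 and 33 in replicates 2 and 8, a level of 12.7 ± 0.800 CPM (SD, n = 2). The 5p arm held 1.35% of the counts of hsa-mir-378a in replicate 2 (0.976 to 1.86, 95% Wilson) against 1.06% in replicate 8 (0.757 to 1.49), a mean of 1.20% ± 0.203, and the intervals overlap. Among 212 hairpins with both arms in the table and at least 50 counts over the arms in each library, the median share of the lesser arm was 3.51%, and 82 hairpins had a smaller one than hsa-mir-378a. In 144 of the 212 an arm held over 90% in both libraries, and in 52 of those it was the 3p arm, as here. Whether the 3p row of hsa-mir-378a also holds reads of the copies was not tested.

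Among the copies, miR-378c, miR-378i and miR-378d held nearly all counts. They summed to 471 of 507 copy counts in replicate 2 and 508 of 535 in replicate 8, and the remaining 6 copies had 36 and 27 counts. For miR-378c 217 and 208 reads were counted, 78.0 ± 2.47 CPM (SD, n = 2). Its libraries lay close together. miR-378i had 141 and 215 counts, 65.3 ± 19.1 CPM, with replicate 8 the higher. miR-378d, which can come from 2 hairpins, had 113 and 85 counts in the row of hsa-mir-378d-1, 36.3 ± 7.33 CPM, with replicate 2 the higher. Its second row, for hsa-mir-378d-2, had 110 and 85 counts, so the rows differed by 3 counts in replicate 2 and by none in replicate 8. They are not separate measurements, and how the authors counted a read that matches several hairpins is not given in the sources used here.

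The other copies were near the limit of detection. miR-378f had 16 and 12 counts and miR-378g 17 and 9. miR-378e had 2 counts in each library, and miR-378h had 1 and 2. miR-378b and miR-378j had no count in replicate 2, which allows up to 1.10 CPM, and 1 count in replicate 8. At least 10 counts in both libraries were found for 4 of the 9 copies (miR-378c, miR-378d, miR-378f and miR-378i), and for 6 of the 11 names with both arms of miR-378a added. Of all names, 26.6% reached this level. With at least 1 count in both libraries 7 copies remained, beside 43.3% of all names. With at least 100 counts 2 remained, miR-378c and miR-378i, beside 13.9% of all names. miR-422a, the relative with the same seed, had 10 and 19 counts.

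**Figure D2:**
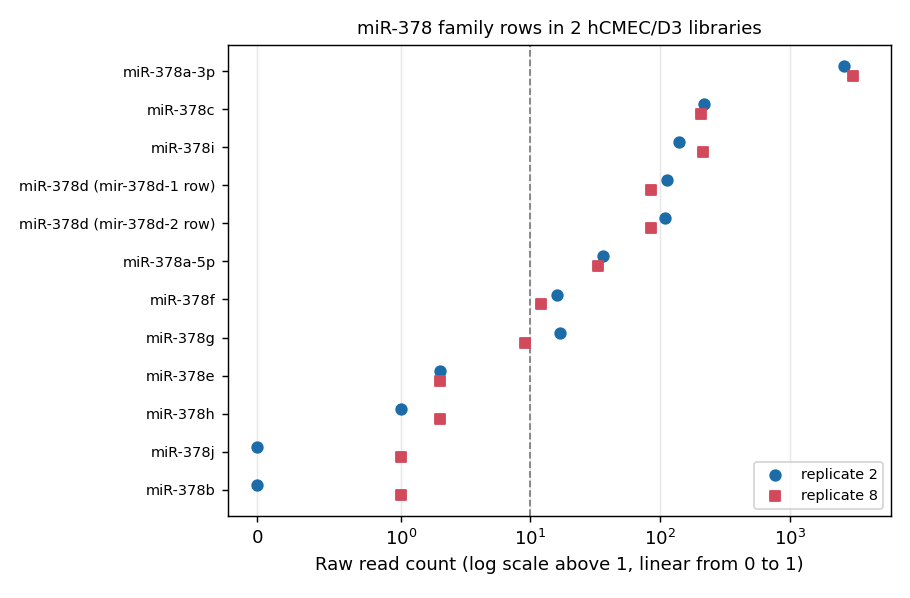
Raw read counts of all 12 family rows (horizontal axis, log scale above 1 and linear from 0 to 1) in replicate 2 (circles) and replicate 8 (squares), with a dashed line at 10 counts. miR-378a-3p is at 2634 and 3076, and no other row exceeds 217 counts.

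Taken against miR-378a-3p in the same library, every copy stayed under 10% of its count. miR-378c had 8.24% of the miR-378a-3p count in replicate 2 and 6.76% in replicate 8, a mean of 7.50% ± 1.04 (SD, n = 2). miR-378i had 5.35% and 6.99%, 6.17% ± 1.16. miR-378d had 4.29% and 2.76%, 3.53% ± 1.08. For miR-378f the values were 0.607% and 0.390%, and for miR-378g 0.645% and 0.293%. By raw count, miR-378c was above miR-378i in replicate 2, by 217 against 141. In replicate 8 miR-378c had 208 counts against 215 for miR-378i, an order that is not resolved at this depth. All 9 copies together came to 19.2% of the miR-378a-3p count in replicate 2 and 17.4% in replicate 8.

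The precision of these proportions was taken from the copy's share of the counts of the pair it forms with miR-378a-3p. For miR-378c this share was 7.61% in replicate 2 (6.69 to 8.64, 95% Wilson) against 6.33% in replicate 8 (5.55 to 7.22), and for miR-378i it was 5.08% (4.32 to 5.96) and 6.53% (5.74 to 7.43). Both pairs of intervals overlap, although the shares moved in opposite directions. For miR-378d it was 4.11% (3.43 to 4.92) and 2.69% (2.18 to 3.31), and these intervals do not overlap. Within replicate 2 the intervals of miR-378c and miR-378i are apart. Within replicate 8 they overlap, so their order there is not resolved at this depth.

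**Figure D3:**
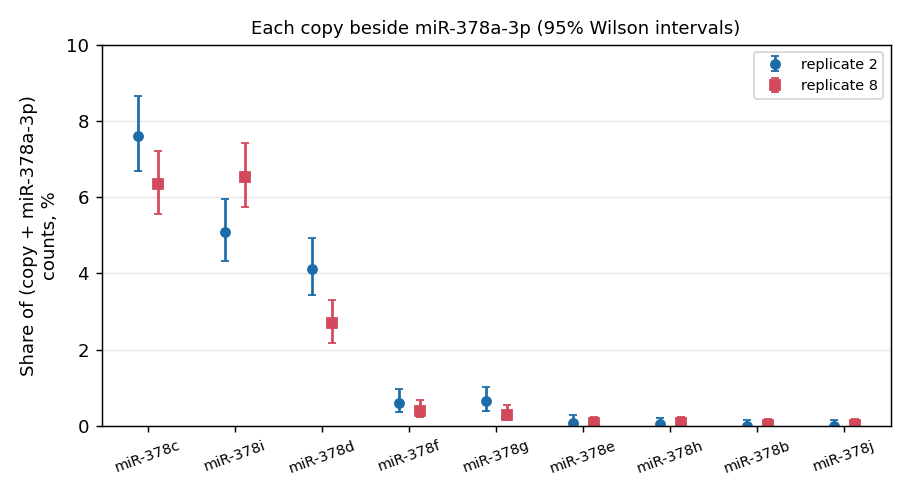
Share of each copy in the summed counts of that copy and miR-378a-3p, in percent, in replicate 2 (circles) and replicate 8 (squares); bars are 95% Wilson intervals. miR-378c, miR-378i and miR-378d stand at 2.69% to 7.61%, and the other 6 copies are below 1%.

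Among the copies with a matched mature sequence, the number of differing bases did not order the counts. miR-378d and miR-378e were not matched and are not part of this comparison. miR-378i, miR-378f, miR-378g and miR-378b each differ from miR-378a-3p by 1 base over the shared length, yet their counts were 141, 16, 17 and 0 in replicate 2 and 215, 12, 9 and 1 in replicate 8. With 2 differing bases, miR-378c had 217 and 208 counts, miR-378h 1 and 2, and miR-378j 0 and 1. The differences of miR-378c are at bases 21 and 22, those of miR-378h at 12 and 19, and those of miR-378j at 7 and 14. miR-378f and miR-378b differ from miR-378a-3p at the same base 14 and were both low.

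For comparison, all pairs of names in the table that differ by at most 2 bases were taken where the more abundant name had at least 1000 counts in each library, using the 1716 names with a RefSeq sequence. There were 19 pairs with 1 differing base, of which 4 hold miR-378a-3p, and 27 pairs with 2, of which 5 hold it. Names whose sequences start alike but were not matched are not among them. In all 9 pairs with miR-378a-3p the lesser name had under 10% of the greater in both libraries. This was so for 7 of the 15 other pairs with 1 differing base and for 12 of the 22 others with 2. The median was 0.626% in replicate 2 and 0.341% in replicate 8 for the pairs of miR-378a-3p with 1 differing base, and 10.3% and 11.2% for the other pairs. The 9 pairs share 1 name and are not independent, so the difference was not tested. Of the other pairs with 1 differing base, the highest was miR-1260b with miR-1260a in replicate 2, 78.0%, and miR-27a-3p with miR-27b-3p in replicate 8, 93.6%. The lowest was miR-185-5p with miR-4306, 0% and 0.0501%. These pairs were named after their values were seen. A further name with 2 differing bases, miR-6128, had no count in either library.

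**Figure D4:**
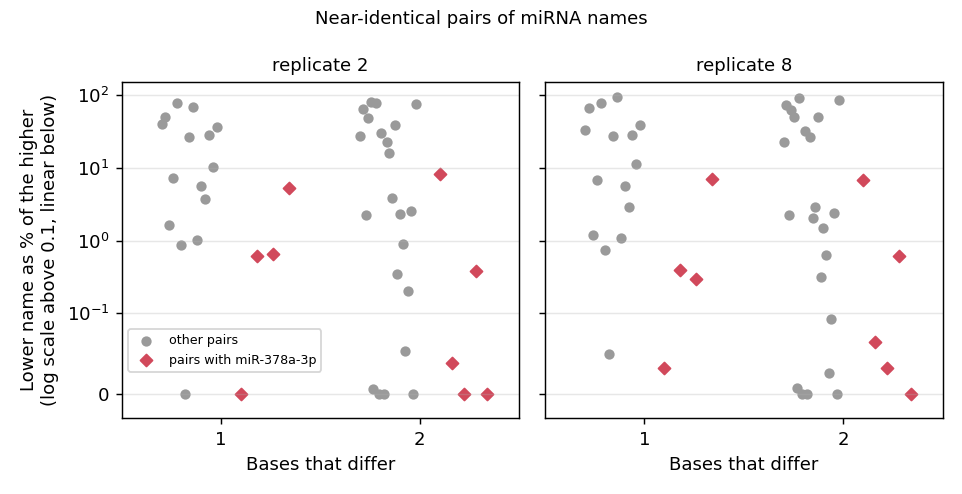
Count of the less abundant name of each near-identical pair as a percent of the more abundant one (vertical axis, log scale above 0.1 and linear below), by the number of differing bases, in replicate 2 (left) and replicate 8 (right); horizontal offsets only separate points. The 9 pairs with miR-378a-3p (diamonds) all lie under 10%, and other pairs (circles) reach 81.2% and 93.6%.

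The whole family held 3177 counts in replicate 2 and 3644 in replicate 8 when each name was counted once, a mean of 3411 ± 330 (SD, n = 2), or 0.117% (95% Wilson interval 0.113 to 0.121) and 0.134% (0.129 to 0.138) of all counts. A read counted at several names would enter this sum more than once. The largest row alone, miR-378a-3p, held 2855 ± 313 counts. miR-378a-3p made up 82.9% of the family in replicate 2 (81.6 to 84.2, 95% Wilson) against 84.4% in replicate 8 (83.2 to 85.6), 83.7% ± 1.06 (SD, n = 2), so its predominance differed little between the libraries. Numbered families with at least 5 hairpins and at least 1000 summed counts numbered 7. By the share of their leading name, hsa-mir-378 followed hsa-mir-320 (miR-320a, 90.3% and 89.97%) and hsa-mir-1273 (miR-1273g-3p, 86.9% and 90.6%) and stood before hsa-mir-181 (miR-181a-5p, 76.0% and 77.0%). At the other end were let-7 (let-7i-5p, 29.7% and 32.4%) and hsa-mir-548 (miR-548k, 12.7% and 18.4%).

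The libraries were compared by a two-sided exact binomial test of each name's split of counts, with Benjamini-Hochberg adjustment over the 695 names with at least 10 summed counts. The test sets 1 library against another, not conditions. In replicate 8 miR-378a-3p was higher by 0.22 on the log2 scale (0.14 to 0.30 at 95% confidence, adjusted p = 7.1e-08 by the exact binomial test). miR-378i was higher by 0.60 (0.29 to 0.92, adjusted p = 0.00055 by the same exact test). The other tested members did not pass: the log2 ratio was -0.06 for miR-378c (-0.35 to 0.22), -0.41 for miR-378d (-0.84 to 0.00), -0.13 for miR-378a-5p (-0.86 to 0.59), -0.40 for miR-378f (-1.63 to 0.75) and -0.88 for miR-378g (-2.27 to 0.33). Thus 2 of 7 tested members passed, both higher in replicate 8, beside 34.2% of all names in either direction, 10.8% in this direction and 23.5% in the other. A count of 2 in 7 is close to the first share and too small to set against the second. The split over all names rests on the scaling: 75 were higher and 163 lower with total counts, 111 and 116 with edgeR's TMM sizes, and 111 and 113 with DESeq2 size factors. The median log2 ratio was -0.13 over the 7 members and -0.11 over all tested names.

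The ratio of miR-378a-3p was near the middle of those between the libraries, and that of miR-378i was above most. Across the 367 names that had 100 or more counts over both libraries, the absolute log2 ratio had a median of 0.21, next to 0.22 for miR-378a-3p. A smaller absolute ratio than that of miR-378i was found for 86.6% of these names, of miR-378d for 71.9% and of miR-378c for 12.5%. Scaling moved all ratios alike: edgeR's TMM sizes raised every log2 ratio by 0.10, and DESeq2 size factors by 0.10, so that miR-378a-3p stood at 0.32 with either and miR-378c turned from -0.06 to 0.03 and 0.04. Along with the higher miR-378a-3p, the 5 blood cell miRNAs summed to 325 and 214 CPM in replicates 2 and 8. Most of this sum was a single name, miR-486-5p, at 309 and 208 CPM. The pericyte and smooth muscle pair miR-143-3p and miR-145-5p summed to 835 and 393 CPM. Of the blood list, miR-142-3p, miR-144-3p and miR-223-3p were at 0 in both libraries. The 2 tested members passed the test as lower in replicate 8, as did both of the pair. Of all tested names, 23.5% passed in this direction with total counts, and these few names are too few to set against that share. For miR-122-5p, known from liver, the levels were 235 and 252 CPM. Their part in the ratio of miR-378a-3p was not tested.

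**Figure D5:**
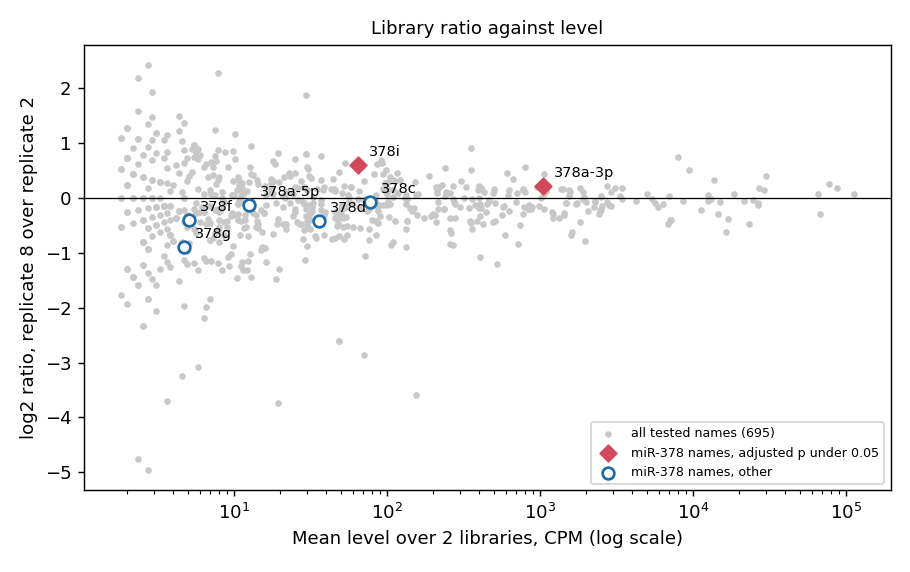
Log2 ratio of replicate 8 over replicate 2 (vertical axis) against mean level in CPM (horizontal axis, log scale) for the 695 tested names in grey. miR-378 names are labelled, with filled diamonds for the 2 with an adjusted p under 0.05 (miR-378a-3p at 0.22 and miR-378i at 0.60) and open circles for the other 5.

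Other intronic miRNAs were listed beside miR-378a, most of them from genes of lipid and energy metabolism and hsa-mir-499a from a muscle gene. In the SREBF genes, which encode regulators of lipid synthesis, both arms of hsa-mir-33a had 4 counts in replicate 2 and 1 in replicate 8. For hsa-mir-33b the 5p arm had no count, and the 3p arm had 34 and 43. From the pantothenate kinase genes, which encode enzymes of coenzyme A synthesis, miR-103a-3p had 34783 and 33662 counts and its close relative miR-107 had 2554 and 2275. miR-107, at 886 ± 73.9 CPM (SD, n = 2), was thus near the level of miR-378a-3p, and miR-103a-3p far above it. hsa-mir-499a, in the myosin gene MYH7B, had 2 and 4 counts for its 5p arm and none for the 3p arm. Of the 11 names in the list, miR-378a included, 5 were detected, beside 26.6% of all names. Of 6 tested, 1 was higher in replicate 8 (miR-378a-3p) and 2 were lower, beside 10.8% and 23.5% of all tested names, with a median log2 ratio of -0.09 beside -0.11.

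Of 16 miRNAs known as regulators of brown fat or mitochondrial genes, 13 were detected, beside 26.6% of all names. The 16 were listed for a known role and not drawn from all names, so these shares are not like for like. The highest were miR-27a-3p at 6859 ± 1564 CPM and miR-27b-3p at 5426 ± 60.1 CPM, then miR-155-5p at 3459 ± 325 CPM and miR-30c-5p at 1995 ± 67.2 CPM (SD, n = 2 each). miR-193b-3p, a promoter of brown fat differentiation in mice, was at 774 ± 57.4 CPM, and its cluster partner miR-365a-3p at 237 ± 22.5 CPM. The muscle and fat regulator miR-133a was at 6.79 ± 1.31 CPM, and miR-455-3p, miR-133b and miR-196a-5p had at most 4 counts in either library. Of 13 tested, 4 were higher and 4 lower in replicate 8, beside 10.8% and 23.5% of all tested names, with a median log2 ratio of -0.02 beside -0.11.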

How the data were processed

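The 2 hCMEC/D3 libraries were made, per the labels' protocols, from column-extracted RNA by adaptor ligation, PCR and gel selection of the miRNA fraction. The submitters' processing notes name CASAVA 1.9, FastQC, cutadapt, Bowtie 0.12.7 and the genome build hg19; the counter and the miRBase release are not given in the sources used here. The authors deposited raw read counts and RPM for each pair of mature name and hairpin. The deposited RPM is the count divided by a fixed number for each library (3180045 for replicate 2, 3205752 for replicate 8).

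Members were all rows whose hairpin begins with hsa-mir-378. CPM used 1 row per mature name. Ratios were taken after adding 0.5 counts. Exact binomial tests (SciPy 1.17.1) were adjusted by Benjamini-Hochberg at 0.05 and checked on simulated data. Besides planted changes, the simulated libraries held counting error only, so the check does not cover any further spread between the real libraries. edgeR 4.0.16 and DESeq2 1.42.0 gave alternative library sizes only, since 1 group allows no edgeR contrast. Positions are from the GENCODE annotation on GRCh37 and sequences from RefSeq. Named besides the members were names with the same first 9 bases, the 3 ranked above and below miR-378a-3p, and the lists of intronic, brown fat and marker miRNAs. The members and lists were chosen with earlier results of these data known.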

Additional observations from a re-analysis of the deposited data

How the results depend on the processing

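Over 7 results 29 alternatives were computed: 22 stayed within 1 SD, within 1.5 times a count or on the same side of the test, 7 moved and none reversed. Some of the 22 could hardly move, so the tally overstates how stable the results are. Counts added before a ratio do not enter the exact test. The leading copy's percent of miR-378a-3p is the same in deposited RPM, which divides all counts of a library by a fixed number. Leaving out a library, which for a mean of 2 libraries stays within 1 SD by construction, gave 3177 to 3644 family counts, 968 to 1128 CPM for miR-378a-3p, 4 to 5 detected copies, a 5p share of 1.06% to 1.35% and a leading copy at 6.99% (miR-378i) to 8.24% (miR-378c) of miR-378a-3p. The family count was 2855 with the largest row only. A set chosen after seeing the data gave 3102. It held miR-378a-5p, miR-378a-3p and miR-378c, the matched copy that shares the first 19 bases of miR-378a-3p. miR-378d and miR-378e had no matched mature sequence and were not assessed for this set. The level of miR-378a-3p was 897 CPM on all rows, 894 in deposited RPM and 1181 CPM without miR-126-3p in the total, shifts that follow from the denominator. Detected copies were 7 at 1 count and 2 at 100 counts, beside 43.3% and 13.9% of all names. The 5p share was 0.990% with all family rows in the 3p arm. The same 2 members, miR-378a-3p and miR-378i, passed with edgeR's TMM sizes, DESeq2 size factors, no filter and every row tested, and the log2 ratio of miR-378a-3p ranged from 0.21 to 0.32. No paired analysis was possible because there is 1 group. Copies with 1 or 2 counts are not resolved at this depth.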
